A study of Mus musculus with 2 samples.

Results

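The genes described here are 10 enzymes that carry tryptophan to NAD or recycle and dispose of its nicotinamide: Afmid, Kynu, Kmo, Haao, Acmsd, Qprt, Nadsyn1, Nmnat1, Nampt and Nnmt. They were chosen by symbol from the 32285 genes listed for each section, and all 10 had at least 1 UMI (a distinct captured RNA molecule) in both sections. Kidney sections of 10 µm from 2 C57BL/6 mice were compared at day 7 after unilateral ureteral obstruction, an operation that ties off the ureter of 1 kidney. One mouse received SH045, a TRPC6 channel inhibitor (larixyl N-methylcarbamate), and the other received vehicle. RNA was captured on 10x Genomics Visium slides, whose barcoded spots each lie over a patch of tissue, often with cells of more than 1 type. There was 1 section per group, from 1 mouse each, so the sections could not be tested against each other and no p-value is given. The study's single-cell samples are not analysed here.

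In the kynurenine pathway, tryptophan is opened to formylkynurenine, which Afmid, Kmo, Kynu and Haao turn step by step into an unstable intermediate, aminocarboxymuconate semialdehyde. At this branch the intermediate closes on its own to quinolinate, which Qprt commits to NAD synthesis, or it is removed by the decarboxylase Acmsd, which lowers the yield of NAD. Nmnat1 and Nadsyn1 complete the synthesis, Nampt rebuilds NAD from nicotinamide, and Nnmt methylates nicotinamide so that it leaves the cycle. The proximal tubule of the kidney, which reabsorbs tryptophan from the filtrate, is known as a site of synthesis of NAD from tryptophan.

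The SH045 section held 22388623 UMIs in 790 spots and the section labelled Vehicle 4327613 UMIs in 676 spots, with medians of 27733 and 4932.5 UMIs per spot. One UMI was therefore worth 0.0447 CPM (UMIs per 1000000 UMIs of the section) under SH045 and 0.231 CPM in the other section. Mitochondrially encoded genes took 4.24% and 10.4% of UMIs. The 2 matrices shared 335 spot barcodes, which name positions on the slide and not cells. Although both sections are labelled as obstructed, the injury genes Havcr1 and Lcn2 were barely seen in the section labelled Vehicle, at 1.62 and 2.08 CPM from 7 and 9 UMIs, against 992 and 1233 CPM under SH045. These values go against the label of that section. Whether it is from an obstructed kidney is not settled by the files, so in every comparison of the sections below, treatment and obstruction cannot be told apart. The 10 markers of the early proximal tubule (its first 2 segments) summed to 1561 CPM under SH045 (565.8 to 1934 over 4 position blocks) and to 10110 CPM (9685 to 10921) in the other section. The 11 injured tubule markers summed to 27053 against 1566 CPM, the 8 fibroblast markers to 2918 against 106 CPM and the 8 macrophage markers to 1929 against 225 CPM. None of the 10 proximal markers was at 0 in either section. Of these 4 lists, the markers at 0 in the section labelled Vehicle were 1 of the injured tubule list and 1 of the fibroblast list, and none of the macrophage list. These marker sums differ between the sections together with the member levels below, and their part in those differences was not tested. In whole spots, fewer cells of a type and less RNA per cell cannot be told apart.

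The 250 bases before the start of 3 members are printed because these genes had different patterns across the tissue, described below, and differ widely in base composition. They are RefSeq sequences of GRCm38.p6, the patch series of the mm10 build, given 5′ to 3′ on the gene's strand, with each CG dinucleotide in capitals. The window of Kmo is chr1:175631943-175632192 (plus), that of Haao chr17:83846791-83847040 (minus) and that of Nampt chr12:32820085-32820334 (plus). Starts are those of the promoter table. Those of Haao, Afmid and Nadsyn1 lie inside the gene spans given below, so the Haao window is within the span of its own gene.
Kmo: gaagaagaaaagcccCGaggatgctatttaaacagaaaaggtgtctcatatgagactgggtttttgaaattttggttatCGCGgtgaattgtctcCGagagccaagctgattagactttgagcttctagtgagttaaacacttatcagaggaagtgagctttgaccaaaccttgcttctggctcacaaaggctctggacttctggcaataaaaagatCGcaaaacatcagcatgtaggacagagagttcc
Haao: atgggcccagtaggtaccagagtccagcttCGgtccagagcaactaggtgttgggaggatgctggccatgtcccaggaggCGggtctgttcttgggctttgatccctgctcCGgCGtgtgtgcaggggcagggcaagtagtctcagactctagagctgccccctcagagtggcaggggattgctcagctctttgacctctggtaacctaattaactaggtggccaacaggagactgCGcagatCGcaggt
Nampt: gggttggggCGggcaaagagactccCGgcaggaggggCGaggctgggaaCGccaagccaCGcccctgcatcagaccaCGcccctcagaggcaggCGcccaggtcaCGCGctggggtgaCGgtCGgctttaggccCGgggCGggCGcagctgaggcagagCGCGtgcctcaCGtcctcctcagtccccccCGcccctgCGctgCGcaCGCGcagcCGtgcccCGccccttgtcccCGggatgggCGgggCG
The Nampt sequence held 27 CG and 75.6% G and C. Over the 32851 promoters of the table the medians were 6 CG and 52.4%. Of these promoters 8.56% held at least as many CG as Nampt. Kmo held 5 and Haao 6, as did Qprt. Afmid held 15, Nadsyn1 23 and Nmnat1 24, so Nampt, Nmnat1 and Nadsyn1 had the most. A promoter was found for 8 of the 10 members. Kynu and Nnmt had none in the table.

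The 3 short motifs below were searched on both strands of the member windows. The core CAAAGNNCA of the site of HNF4, a factor of proximal tubule and liver, occurred in Kmo at positions -96 to -88 from the table's start, in Haao at -158 to -150 and in Nadsyn1 at -197 to -189, and in 5.49% of all promoters. In each match the motif lay on the opposite strand. The AP-1 motif TGANTCA and the TATA motif TATAAA, present in 6.75% and 12.4% of all promoters, had no match in these windows. No motif contains another. These matches describe letters in a window and not bound sites.

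**Figure D1:**
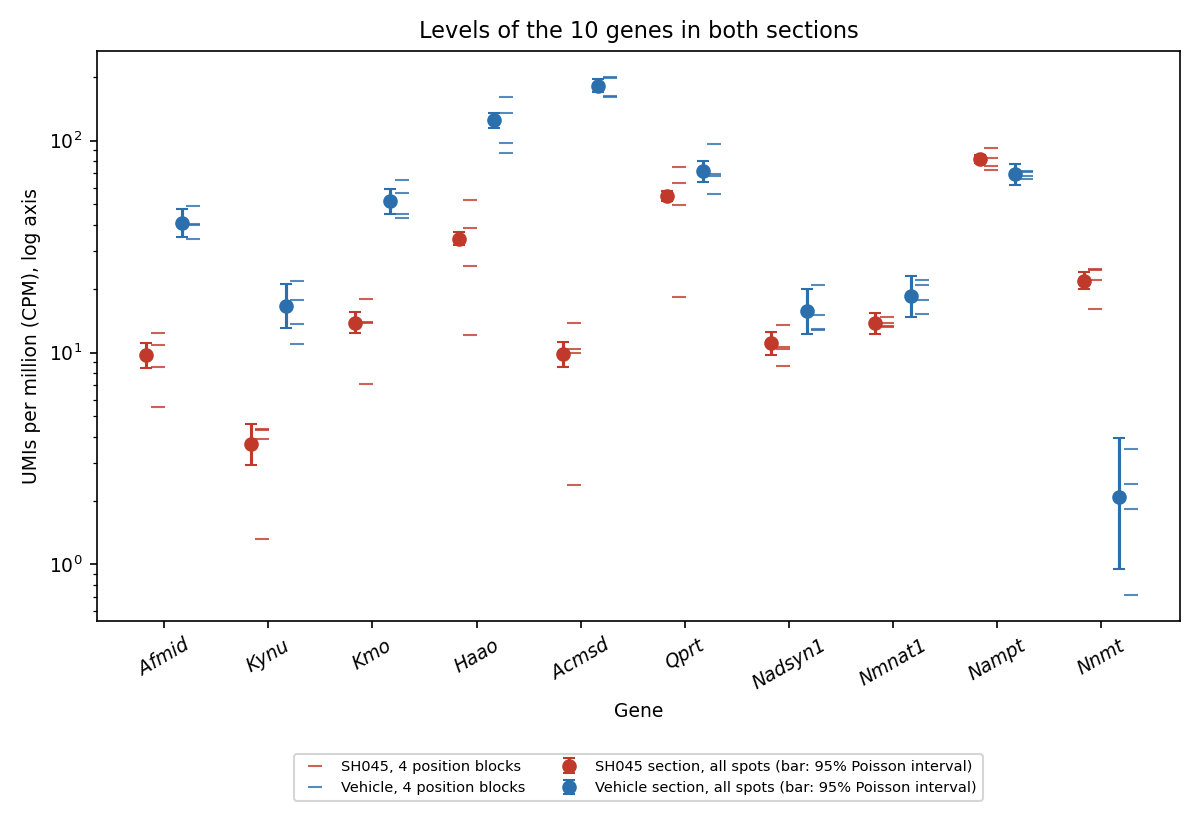
Level of each of the 10 genes in each section, in CPM on a log axis. Points are section totals with 95% Poisson intervals and the dashes beside them the 4 position blocks of a section. Acmsd, Haao, Kmo, Afmid and Kynu sit higher in the section labelled Vehicle and Nnmt higher in the SH045 section, while the blocks of Qprt and Nadsyn1 overlap.

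The enzymes upstream of the branch were all lower in the SH045 section. A gene is called higher or lower here at 1.5-fold or more on the log2(CPM + 1) scale, when it reached 10 CPM in either section. Afmid (ENSMUSG00000017718, chr11:117825503-117839908), the formamidase that releases kynurenine, was at 9.74 CPM under SH045 and 40.9 CPM in the section labelled Vehicle, from 218 and 177 UMIs. This is a 4.20-fold difference (95% interval 3.43 to 5.15, covering counting error only, as do all intervals given). Over the position blocks Afmid ran from 5.51 to 12.3 CPM and from 34.5 to 49.3 CPM, without overlap. Its span overlaps that of Tk1 at the start of the gene. The spans of Acmsd (Gm35993 and 2900009J06Rik) and Nampt (Gdap10) overlap long noncoding RNA genes, and that of Haao a pseudogene (Gm19260).

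Kynu (ENSMUSG00000026866, chr2:43555258-43683048), the kynureninase that makes hydroxyanthranilate, was the sparsest of these enzymes, with 83 and 72 UMIs. It stood at 3.71 CPM in the SH045 section against 16.6 CPM in the section labelled Vehicle, a difference of 4.49-fold (3.23 to 6.23). Its blocks ran from 1.31 to 4.36 and from 10.99 to 21.6 CPM. Kmo (ENSMUSG00000039783, chr1:175632193-175660853), the mitochondrial outer membrane enzyme that hydroxylates kynurenine, was at 13.8 against 51.8 CPM, from 310 and 224 UMIs. It was 3.74-fold lower in the SH045 section (3.13 to 4.45), with blocks of 7.09 to 17.9 against 43.1 to 64.9 CPM. Haao (ENSMUSG00000000673, chr17:83831348-83848981), the dioxygenase that forms the branch intermediate, was at 34.4 against 124.8 CPM, from 770 and 540 UMIs. Its difference was 3.63-fold (3.24 to 4.06), and its lowest block in the section labelled Vehicle, 87.9 CPM, lay above its highest in the SH045 section, 52.2 CPM. The folds of these 4 enzymes lay between 3.63 and 4.49, and their intervals overlapped one another.

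Acmsd and Qprt, the enzymes on either side of the branch, differed in how far apart the sections were. Acmsd (ENSMUSG00000026348, chr1:127729413-127767564) was at 9.83 CPM (8.57 to 11.2) under SH045 and 182 CPM (169 to 195) in the section labelled Vehicle, from 220 and 787 UMIs. It was 18.5-fold lower in the SH045 section (15.9 to 21.6). Its blocks ran from 2.36 to 13.7 CPM and from 160 to 200 CPM, so the sections were far apart in every block. Qprt (ENSMUSG00000030674, chr7:127107770-127122029), the transferase that makes nicotinate mononucleotide from quinolinate, was at 55.0 CPM, from 1231 UMIs, against 71.6 CPM, from 310 UMIs. This 1.30-fold difference (1.15 to 1.48) is under the call of 1.5-fold. The blocks of Qprt overlapped, with 18.4 to 74.8 CPM in the SH045 section and 55.8 to 96.0 CPM in the other.

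Set against Qprt, there were 17.9 Acmsd UMIs per 100 Qprt UMIs (15.4 to 20.6) under SH045 and 254 (222 to 290) in the section labelled Vehicle. The ratio was thus 14.2 times higher in the latter. It ran from 12.9 to 27.6 over the SH045 blocks and from 206 to 294 over those of the section labelled Vehicle. This ratio does not depend on how the sections are scaled to each other. It compares RNA counts of 2 genes and not enzyme amounts.

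The enzymes shared by several routes to NAD differed less between the sections than Acmsd and the enzymes upstream of the branch. They did not differ less than Qprt. Nadsyn1 (ENSMUSG00000031090, chr7:143795589-143822862), the synthetase that adds the amide, was at 11.03 against 15.7 CPM, from 247 and 68 UMIs, a ratio of 1.42 (1.07 to 1.87) with overlapping blocks. Nmnat1 (ENSMUSG00000028992, chr4:149467569-149485210), the nuclear adenylyltransferase, was at 13.8 against 18.5 CPM, from 308 and 80 UMIs. Its ratio was 1.34 (1.04 to 1.72), and its blocks were apart, at 13.1 to 14.6 against 15.2 to 22.0 CPM. Its span overlaps those of Lzic and Tmem274. Neither gene reached the 1.5-fold call.

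The nicotinamide genes did not follow the kynurenine enzymes. Nampt (ENSMUSG00000020572, chr12:32820335-32853369), the rate-limiting enzyme of the salvage route, was at 81.9 CPM under SH045 and 69.3 CPM in the section labelled Vehicle, from 1834 and 300 UMIs. It was 1.18-fold higher in the SH045 section (1.05 to 1.34), within the 1.5-fold limit, with blocks of 72.7 to 92.6 against 65.7 to 72.2 CPM. With sections scaled by trimmed mean of M-values (TMM), which centres the typical gene, its log2 ratio turned from 0.24 to -0.37. Nnmt (ENSMUSG00000032271, chr9:48538002-48607655), the methyltransferase, was at 21.8 CPM (19.9 to 23.9) against 2.08 CPM (0.951 to 3.95), from 489 and 9 UMIs. It was 10.5-fold higher in the SH045 section (5.49 to 23.1), and its blocks ran from 16.0 to 24.9 and from 0.715 to 3.52 CPM.

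In all, 5 of the 10 members were lower in the SH045 section, where 11.8% of the 10463 genes measured were, and 1 was higher, where 52.2% were. Their median log2 ratio of SH045 over Vehicle was -1.15, beside 0.63 over all genes measured. Blocks of the 2 sections did not overlap for 8 of the 10, 6 lower and 2 higher, where 13.5% of all genes were lower and 56.7% higher without overlap. TMM scaling moved the median of all genes to 0.04 and called 8 members lower, adding Qprt, Nadsyn1 and Nmnat1, and 1 higher. On that scale 24.5% of all genes were lower and 26.9% higher.

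Set against the summed proximal tubule markers, Acmsd was still lower in the SH045 section, while Afmid, Kmo, Kynu and Haao were not. Per 1000 UMIs of the first and second segment markers, Acmsd had 6.29 UMIs under SH045 and 18.0 in the section labelled Vehicle, 2.86 times fewer (2.46 to 3.33). Each of the other 9 members had more per summed marker UMI in the SH045 section. The marker sum itself was at 1561 against 10110 CPM, so any gene lowered by less than this comes out higher. The share of all genes that do was not computed, so this count is not particular to the members. Kmo had 8.87 against 5.12, Haao 22.0 against 12.3, Afmid 6.24 against 4.05 and Kynu 2.37 against 1.65. Qprt had 35.2 against 7.09, Nadsyn1 7.07 against 1.55, Nmnat1 8.81 against 1.83, Nampt 52.5 against 6.86 and Nnmt 14.0 against 0.206. For genes that other cells also make, this quotient counts RNA from those cells. The sum rests mostly on Slc34a1 and Miox, which gave 51.6% of its UMIs under SH045 and 69.1% in the section labelled Vehicle. The single markers differed from 1.501-fold (Slc4a4) to 19.9-fold (Slc22a8) between the sections, so the 18.5-fold of Acmsd lies within their range and is not particular to it. Per UMI of single markers, Acmsd was lower in the SH045 section for 9 of 10, with ratios of SH045 over Vehicle from 0.081 (Slc4a4) to 1.08 (Slc22a8). For Kmo, Haao, Kynu and Afmid the direction turned with the marker, since each was lower per UMI of 6 markers (Slc5a2, Slc5a12, Slc7a7, Lrp2, Cubn and Slc4a4) and higher per UMI of the other 4. Qprt, Nadsyn1, Nmnat1, Nampt and Nnmt were higher per UMI of all 10. So is any gene that was less than 1.501-fold lower in the SH045 section.

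Spots of like proximal marker content, by the same sum, were then compared between the sections in 5 bands. Between 5000 and 10000 CPM of these markers lay 28 SH045 spots and 246 spots of the section labelled Vehicle, with marker sums of 7183 and 8513 CPM. In this band Acmsd was at 72.9 against 192 CPM, 2.64-fold lower in the SH045 section (2.07 to 3.38). Haao was at 119 against 90.5 CPM, a ratio of SH045 over Vehicle of 1.31 (1.03 to 1.66). The ratio of Kmo was 0.87 (0.61 to 1.21), of Afmid 0.963 (0.613 to 1.4998) and of Kynu 1.39 (0.73 to 2.66), so for these 3 a difference was not detectable at this depth. Qprt was at 94.5 against 60.6 CPM, 1.56-fold higher in the SH045 spots (1.18 to 2.07). Nnmt was at 14.1 against 3.12 CPM, from 17 and 5 UMIs.

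Nampt, Nadsyn1 and Nmnat1 had ratios of 1.33 (0.998 to 1.77), 0.75 (0.39 to 1.41) and 0.94 (0.47 to 1.83) in that band. Of the 10 members Acmsd was thus the one whose interval lay wholly below 1 in this band. The share of all genes with such an interval was not computed, so this does not set Acmsd apart from genes outside the 10. Between 2500 and 5000 CPM of proximal markers, over 55 and 45 spots, Acmsd was again lower in the SH045 spots, at 20.3 against 63.9 CPM or 3.14-fold (1.66 to 5.70). In this lower band Nmnat1 was lower as well, at 6.42 against 30.1 CPM from 12 and 8 UMIs, and Qprt was higher, at 97.4 against 18.8 CPM from 182 and 5 UMIs. The 3 other bands were thin, with 3, 6 or 22 spots of 1 section. Above 10000 CPM, with 3 SH045 spots and 357 of the other section, the ratio of Acmsd was 0.482 (0.262 to 0.818) and that of Haao 0.586 (0.317 to 0.996), from 14 SH045 UMIs each, so Haao turned against its direction in the band below. Between 1000 and 2500 CPM, with 250 and 22 spots, the ratio of Acmsd was 0.236 (0.0865 to 0.902), from 4 UMIs in the section labelled Vehicle, and that of Qprt 11.5 (2.05 to 453), from 1 UMI there. Under 1000 CPM the section labelled Vehicle had 6 spots, with no Acmsd UMI and 5 of Nmnat1, whose ratio was 0.113 (0.0475 to 0.353). The bands were not matched for other cells. The injured tubule markers summed to 10079 and 1572 CPM in the upper band, and to 19328 and 3608 CPM in the lower one. Acmsd UMIs per 100 Qprt UMIs in the upper band were 77.2 (57.8 to 103) and 318 (252 to 403).

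**Figure D2:**
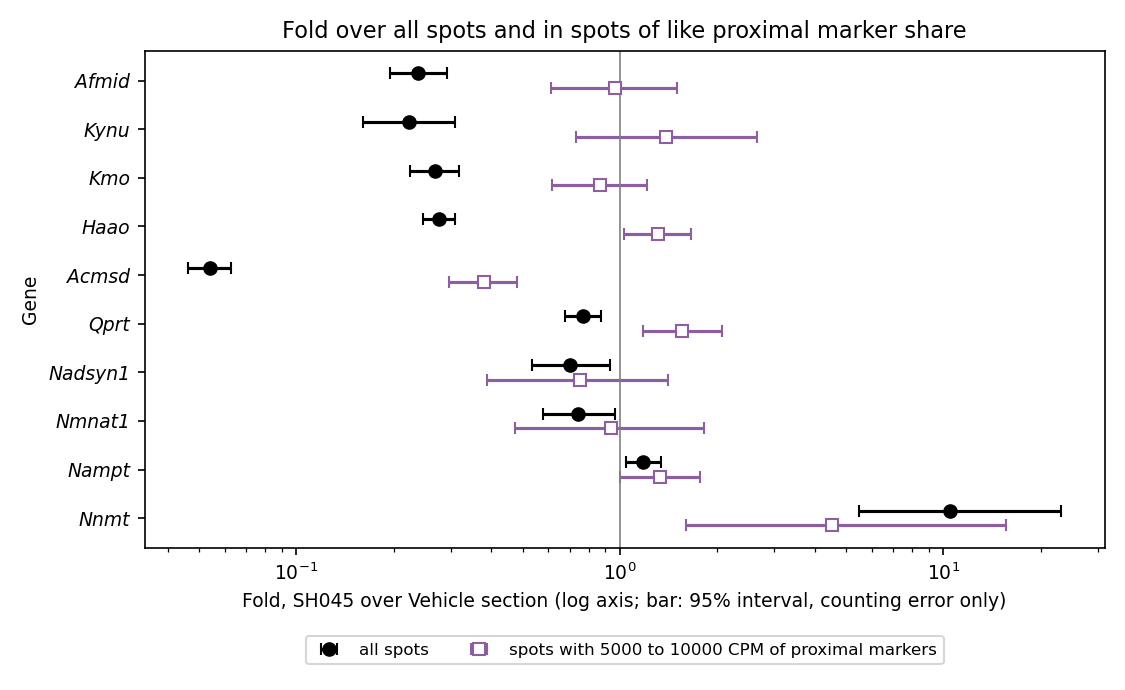
Fold of SH045 over Vehicle for each gene on a log axis, over all spots (black) and over spots with 5000 to 10000 CPM of proximal markers (open squares), with 95% intervals for counting error. Afmid, Kynu, Kmo and Haao lie left of 1 over all spots and near or right of 1 in the band, Acmsd stays left of 1 at 0.054 and 0.38, and Nnmt stays right of it.

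Within each section, spots were put into 5 classes of equal number by their share of first and second segment markers. In the SH045 section 7 of the 10 members were at least 1.5-fold higher in class 5, the richest, than in class 1. Among the 10194 genes at 10 CPM or more in this section, 11.6% were. Acmsd, Afmid and Kynu lay under that minimum in this section, and of the other 7 members 4 passed. Acmsd stood at 2.06, 2.74, 3.68, 6.22 and 26.9 CPM from class 1 to class 5, so most of its climb lay in the last step. Haao stood at 7.65, 11.7, 17.3, 40.2 and 73.7 CPM, and Qprt at 10.6, 33.6, 46.0, 69.2 and 90.6 CPM, with more even steps. From class 1 to class 5 Acmsd differed 13.1-fold (6.19 to 33.0), Haao 9.64-fold (6.49 to 14.9), Qprt 8.56-fold (6.10 to 12.4) and Kmo 6.48-fold (3.82 to 11.8). Kynu differed 14.1-fold, from 2 UMIs in class 1, with an interval of 3.69 to 119. Afmid differed 2.81-fold (1.70 to 4.87) and Nadsyn1 2.03-fold (1.30 to 3.27). Nampt went from 72.1 to 87.0 CPM, a ratio of 1.21, Nnmt from 24.1 to 20.5 CPM and Nmnat1 from 14.1 to 10.3 CPM, and the last 2 had intervals that held 1.

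In the section labelled Vehicle 6 of the 10 passed the same limit, where 18.0% of 8199 genes did. Nnmt, the 1 member under 10 CPM there, was not among them. Acmsd was at 83.0 CPM in class 1 and 241 CPM in class 5, a 2.90-fold difference (2.17 to 3.92). Its lowest class there was above its highest class in the SH045 section. Haao went from 50.4 to 232 CPM, 4.598-fold (3.23 to 6.72), Qprt from 20.4 to 100.2 CPM, 4.91-fold (2.82 to 9.15), and Kynu and Afmid differed 2.96-fold (1.16 to 8.97) and 2.36-fold (1.38 to 4.22). The sixth, Kmo, went from 25.9 to 41.5 CPM with an interval of 0.90 to 2.96, and was highest in the middle classes, at 64.2, 65.9 and 55.2 CPM. Proximal markers were high in nearly all spots of this section, so its class 1 still held proximal tubule RNA.

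**Figure D3:**
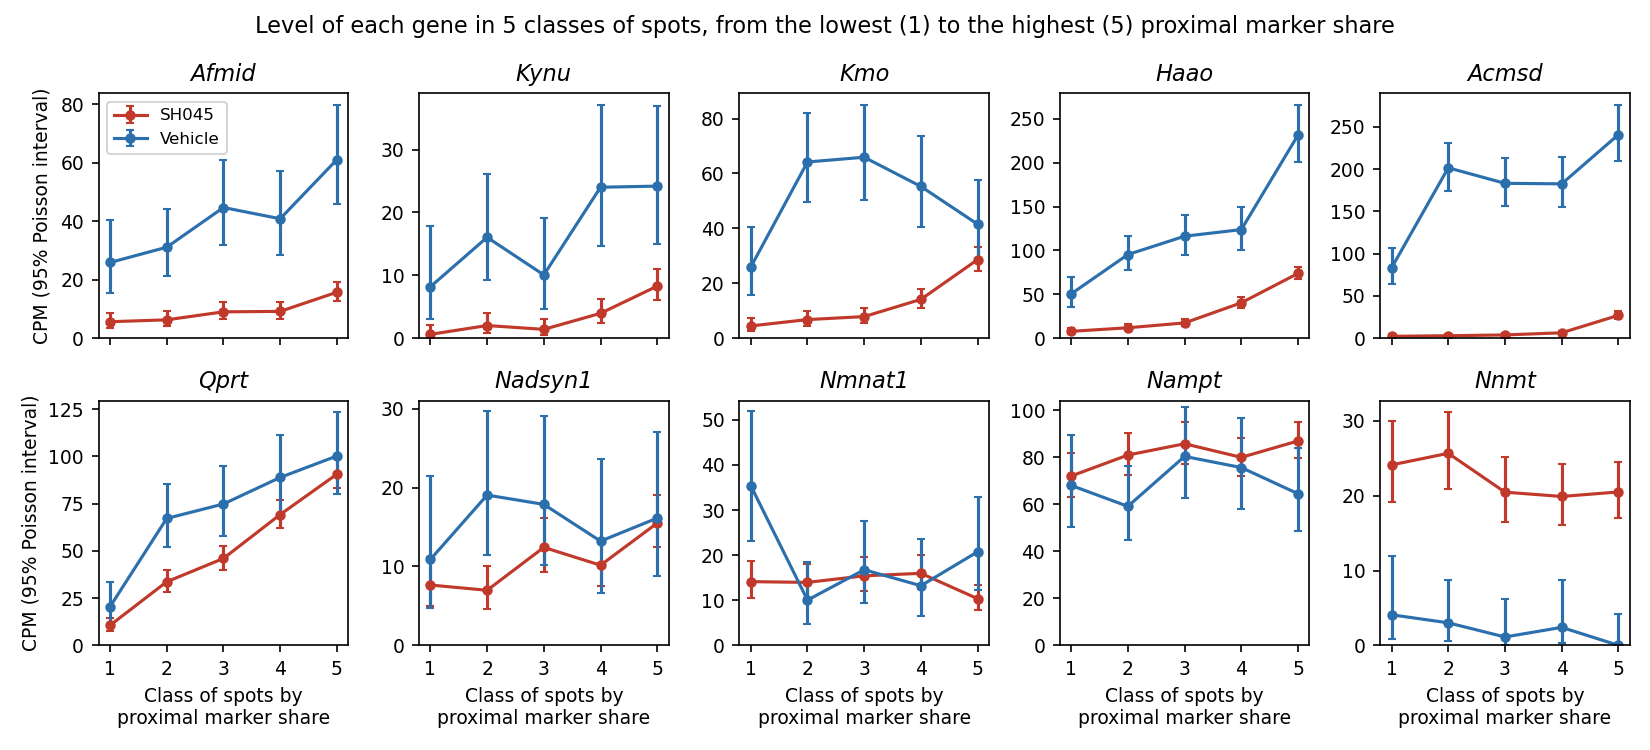
Level of each gene, in CPM on linear axes that start at 0 and differ between panels, in 5 classes of spots ordered by their share of early proximal markers, for both sections, with 95% Poisson intervals. Acmsd reaches 26.9 CPM in the highest SH045 class and 83.0 CPM in the lowest Vehicle class, while Nampt stays between 59.2 and 87.0 CPM in all 10 classes.

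Ordering the SH045 spots by other marker lists gave profiles that differed between some of the genes. Acmsd, Kmo and Haao went in the same direction as one another along the straight segment, injured tubule and fibroblast shares. By the share of straight segment markers (the last part of the proximal tubule), Haao stood at 90.7 CPM in the richest class and a level 6.05-fold lower in the poorest (4.66 to 7.95). Kmo differed 2.58-fold (1.82 to 3.71), Acmsd 2.01-fold (1.33 to 3.09) and Qprt 1.28-fold (1.07 to 1.53) along that list, and 5.88% of genes were 1.5-fold higher. By the injured tubule share, Haao was at 13.3 CPM in the richest class and 76.2 CPM in the poorest, Acmsd at 6.20 and 26.2, and Kmo at 8.64 and 28.9 CPM, where 5.42% of genes were lower by 1.5-fold. Qprt hardly differed along the injured tubule share, at 56.7 and 64.3 CPM, a ratio of 0.88 (0.75 to 1.04). In the section labelled Vehicle it did differ along that share, at 32.7 and 107 CPM, a ratio of 0.31 (0.19 to 0.48). There 16.7% of genes were lower by 1.5-fold. Along the fibroblast share of the SH045 spots Qprt did differ, at 16.8 CPM in the richest class and 91.3 CPM in the poorest, where 10.9% of genes were lower by 1.5-fold. Nnmt was 1.62-fold higher (1.20 to 2.17) in the class richest in macrophage markers than in the poorest, at 26.3 against 16.3 CPM, where 12.3% of genes were higher. Over the 49 tiles described below, however, its Pearson correlation with the summed macrophage markers was -0.11. Along the fibroblast share the ratio of Nnmt was 1.38 (1.004 to 1.89), and its correlation with the summed fibroblast markers over the tiles was 0.016. Nampt was at 100.1 CPM in the class richest in thick ascending limb markers and at 71.8 CPM in the poorest, a ratio of 1.39 (1.21 to 1.61). Along the straight segment list its ratio was alike, at 98.4 against 69.9 CPM or 1.41 (1.21 to 1.63). Neither reached 1.5-fold, which 5.69% of genes did along the thick ascending limb list.

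Spots of each section were grouped into regions by their overall expression with the 10 genes left out, and regions are named by their leading genes. In the SH045 section, region 1 (59 spots, led by Slc22a8, Dnase1 and Miox) had the highest proximal marker sum, 5886 CPM. Acmsd itself was among its 10 leading genes, although it took no part in the grouping. Acmsd was at 51.6 CPM (43.0 to 61.4) there, and this region held 57.3% of the section's Acmsd UMIs in 10.9% of all its UMIs. With a coarser clustering, at resolution 0.4 in place of 0.6, the highest region had 26.3 CPM of Acmsd, and 34.1 CPM when the 10 genes took part in the grouping. In the other 8 SH045 regions Acmsd lay between 1.69 and 8.35 CPM. The 5 regions of the other section lay between 96.9 and 254 CPM of Acmsd, each above SH045 region 1. This separation depends on the clustering. At resolution 1 the lowest region of the section labelled Vehicle had 43.1 CPM (23.0 to 73.7). That is under the 53.3 CPM (44.4 to 63.5) of the highest SH045 region at that resolution.

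Haao and Kmo were also high in a second SH045 region in which Acmsd was not. Region 2 (38 spots, led by Serpina1d, Slc22a7 and Slc22a19) had the highest straight segment sum, 1880 CPM. Haao was at 127.5 CPM (109 to 148) in region 2 and at 97.8 CPM in region 1, and Kmo at 32.2 and 43.4 CPM. Which region led in Kmo depended on the clustering, since at resolution 0.4, and with the 10 genes kept in, it was highest in the second region, at 32.3 CPM. In region 2 Acmsd was at 3.75 CPM, from 5 UMIs, Kynu at 1.4998 CPM, from 2 UMIs, and Afmid at 3.75 CPM, against 13.5 and 21.7 CPM for the last 2 in region 1. Qprt was spread more widely. It was at 96.2 CPM in region 1 and at 98.2 CPM (87.3 to 110.0) in region 3 (80 spots, led by Ccl5, Slc51a and Vcam1), where the injured tubule markers summed to 29290 CPM. That sum is near the 27053 CPM of the whole SH045 section.

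As a result, Acmsd UMIs per 100 Qprt UMIs ranged widely inside the SH045 section, from 4.73 (2.55 to 8.06) in region 3 and 5.88 in region 2 to 53.6 (42.8 to 66.9) in region 1. The 5 regions of the section labelled Vehicle lay between 168 and 333. Nampt was highest in SH045 region 7 (82 spots, led by Fst, Clca3a2 and Ptger3, and also by Slc12a1), at 129.6 CPM (113 to 148), and next in region 2 at 116 CPM. Its lowest value was 50.1 CPM in region 6. Nnmt was highest in region 6 (18 spots, led by Sfrp4, Ccl21a and Rbp4, with a fibroblast marker sum of 8668 CPM), at 44.5 CPM (25.5 to 72.3), and between 14.2 and 30.9 CPM elsewhere. This small region depends on the clustering, since the highest Nnmt of any region was 24.0 CPM at resolution 0.4, 31.0 CPM at resolution 1 and 31.2 CPM with the 10 genes kept in. Nmnat1 lay between 10.2 and 16.9 CPM in all 9 regions and Nadsyn1 between 6.18 and 16.4 CPM. The regions of the section labelled Vehicle differed in mitochondrially encoded share, which was 21.3% in region 3 and 17.7% in region 4 against 2.6 to 4.6% in the rest. Kmo was highest in region 3 of that section, at 79.5 CPM, and lowest in region 5, at 19.2 CPM.

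**Figure D4:**
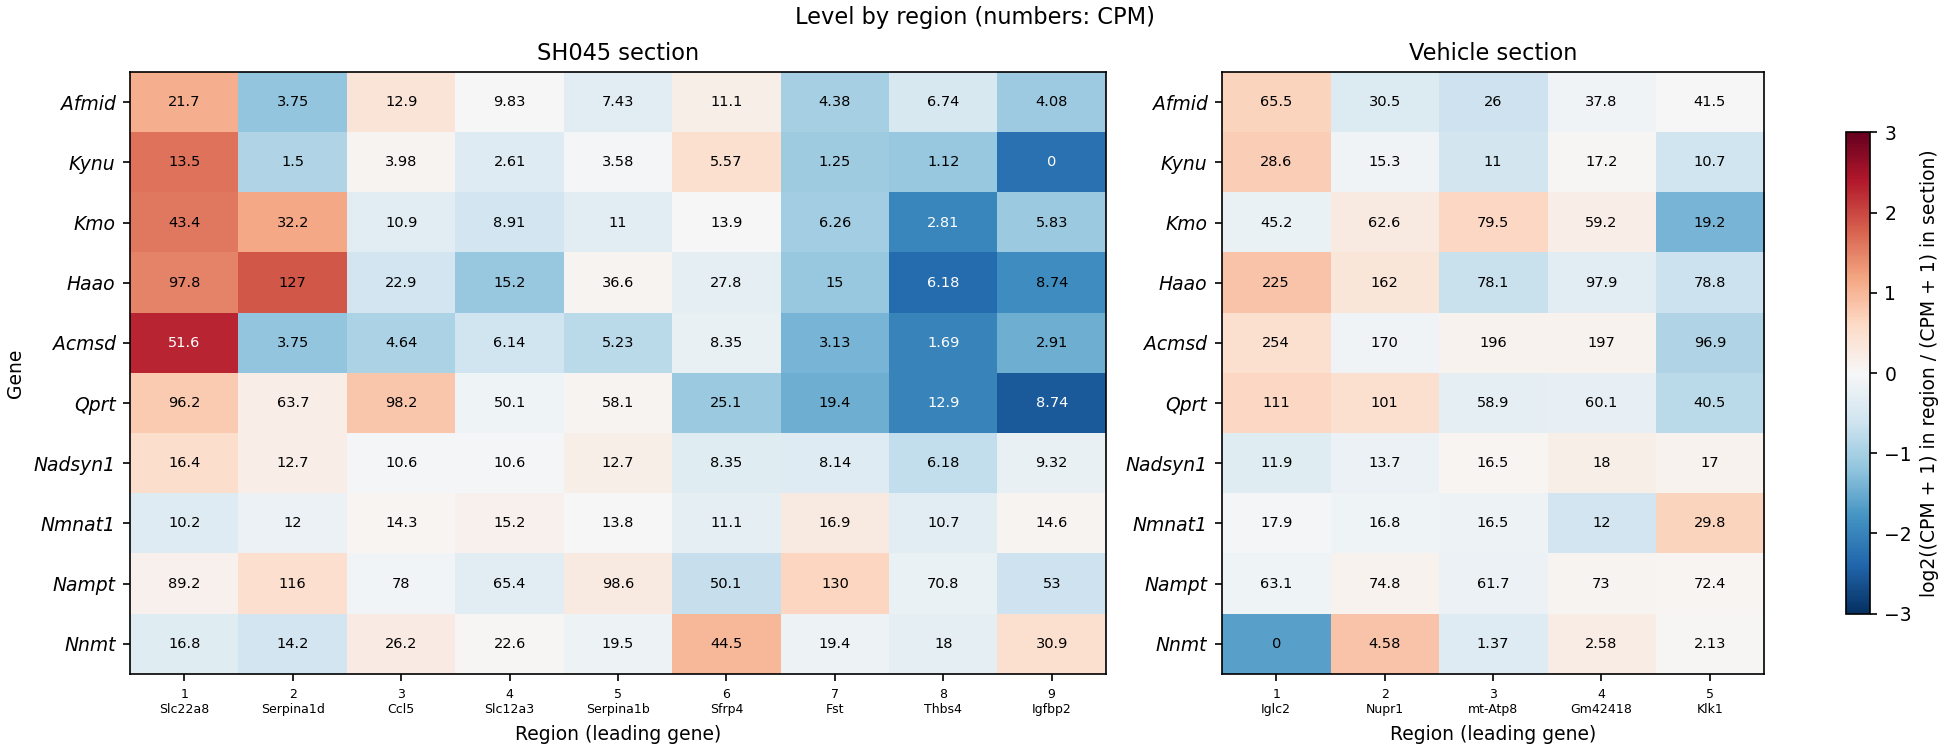
Level of each gene in the regions of each section, with the CPM printed in each cell and the colour giving the log2 ratio of region to whole section, on CPM + 1. Regions are ordered by falling proximal marker share and carry the name of a leading gene. At this resolution SH045 region 1 holds the highest Acmsd, Kmo, Kynu and Afmid of that section, of which Kmo moves to another region at resolution 0.4, region 2 the highest Haao and region 7 the highest Nampt.

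The same contrasts appear in single spots once depth is matched. With each spot thinned to 2500 UMIs, which left out 2 SH045 spots and 115 of the other section, Acmsd had a UMI in 1.52% of the 788 spots kept under SH045 (0.789 to 2.64%). In the section labelled Vehicle the share was 36.5% of 561 spots (32.5 to 40.7%). Without thinning these shares were 15.8% and 57.2%. In the lowest proximal class the thinned shares were 0.633% and 21.3%, and in the highest 4.49% and 48.5%. Haao was seen in 6.09% and 22.8% of spots, Kmo in 2.92% and 11.9%, Qprt in 12.1% and 16.4%, and Nampt in 17.5% and 14.97%. Nnmt had a UMI in 6.22% of the SH045 spots (4.64 to 8.14%), against 3 of the 561 others, 0.535% (0.1104 to 1.55%). The intervals of the 2 sections overlapped for Qprt, Nampt, Nadsyn1 and Nmnat1. The share of all genes without overlap was not computed for thinned spots, so this split is not particular to the members.

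**Figure D5:**
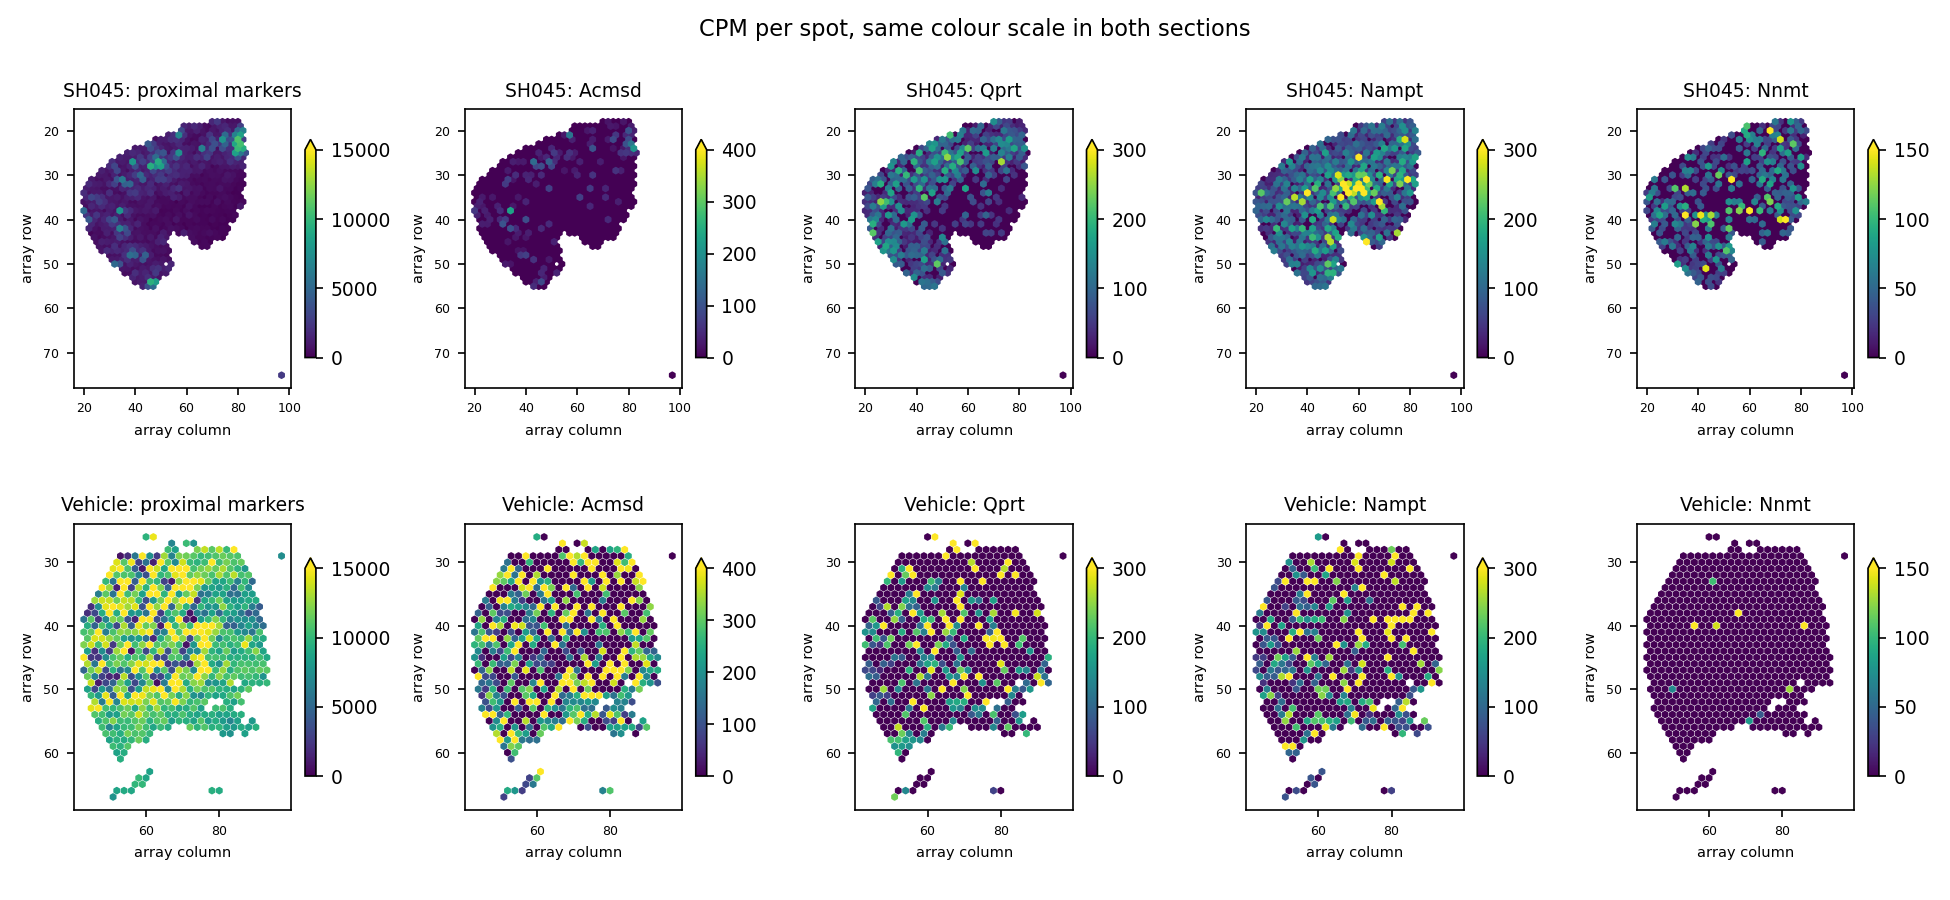
Spots of both sections at their array row and column, coloured by CPM per spot of the summed early proximal markers, Acmsd, Qprt, Nampt and Nnmt, with 1 colour scale per gene for both sections. Acmsd is at 0 in most SH045 spots and seen in 57.2% of the spots labelled Vehicle, and Nnmt was seen in 9 UMIs of that whole section. Single spots labelled Vehicle are shallow, so 1 UMI there already gives a bright colour.

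Position within the tissue bore differently on the genes. From spots 1 or 2 steps from the edge of the measured area to those 6 or more steps inside, Nampt went from 73.6 to 102 CPM and Haao from 27.3 to 50.5 CPM in the SH045 section. The straight segment markers went from 155 to 522 CPM and those of the thick ascending limb from 2552 to 6231 CPM over the same classes. Nnmt was level, at 21.6 CPM both at the edge and inside. Acmsd fell in this section, from 11.6 CPM (9.21 to 14.3) to 7.34 CPM (5.43 to 9.70). In the section labelled Vehicle, Haao went from 103 to 155 CPM and Qprt from 62.0 to 93.3 CPM, while Acmsd went the other way, from 198 to 155 CPM. The mitochondrially encoded share there was 14.4% at the edge and 4.50% inside. In the SH045 section it was 4.09% and 4.86%.

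Levels were also compared over square tiles of neighbouring spots, 49 in the SH045 section and 43 in the other, to find the genes of most similar pattern among those at 50 CPM or more. Tiles share a library and differ in depth and cell content, so the correlations are descriptions. The genes named as most similar are the highest of 3943 candidates in the SH045 section and of 2809 in the other. Tiles had medians of 407666 and 76192 UMIs, so genes near 50 CPM had few UMIs per tile in the section labelled Vehicle. In the SH045 section Qprt was most like Cideb (Pearson r = 0.93), Dao (0.93) and Tmbim4 (0.91), and Nampt most like Slc34a2 (0.70), Gclc (0.63) and Pank1 (0.58). With the summed first and second segment markers, r was 0.85 for Qprt, 0.72 for Haao, 0.70 for Acmsd and 0.62 for Kmo, and with tile depth 0.60, 0.62, 0.45 and 0.52. In the section labelled Vehicle Haao was most like Miox (0.73), Hspa8 (0.71) and Pdzk1ip1 (0.70), and Kmo most like Tmem183a (0.73), Usp9x (0.73) and Mettl7a1 (0.58). Acmsd there was most like Idh1 (0.57), Ufc1 (0.57) and Paqr9 (0.56), and Nampt most like Ap1g1 (0.82), Col18a1 (0.82) and Hnrnpc (0.80). The genes nearest to Qprt in that section, B4galt5 (0.85), Cmtm4 (0.82) and Ppa2 (0.80), rested on the 5 shallowest tiles, without which r was 0.21, 0.20 and 0.44.

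The other genes of these pathways were taken from 7 lists of 52 genes, of which 38 reached 10 CPM in either section. Of these 38, 10 were higher and 13 lower in the SH045 section, with a median log2 ratio of -0.28, where 52.2% of all genes measured were higher and 11.8% lower, with a median of 0.63. TMM scaling called 10 higher and 21 lower, where 26.9% and 24.5% of all genes were. The counts of each list below, of 3 to 13 genes, are read against the same shares. Of the 5 tryptophan uptake genes measured, 3 were lower and none higher. The neutral amino acid transporter Slc6a19 was at 22.5 against 144 CPM, its partner Cltrn (collectrin) at 654 against 1834 CPM, and Slc3a2, the shared subunit of several transporters, at 164 against 137 CPM. Of the 5 other kynurenine pathway enzymes measured 3 were lower and none higher. Got2 was at 127 against 360 CPM, Aldh8a1, which acts downstream of Acmsd, at 68.3 against 233 CPM, and the transaminase Aadat at 85.3 against 73.7 CPM. Tdo2 and Ido1, which open tryptophan, had no UMI in either section, which allows up to 0.134 CPM under SH045 and 0.693 CPM in the other section (3 counts per section). Ido2, which acts at the same step, was seen in both sections but stayed under 10 CPM. It had 21 UMIs under SH045 (0.938 CPM) and 24 in the section labelled Vehicle (5.55 CPM).

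Among other tryptophan enzymes 2 of 3 measured were lower and 1 higher. The methyltransferase Inmt was at 36.2 against 585 CPM, the decarboxylase Ddc at 25.5 against 75.6 CPM and the monoamine oxidase Maoa at 14.2 against 4.62 CPM. Of 8 other genes of NAD synthesis and transport, 6 were within 1.5-fold, 1 was higher and 1 lower. The phosphorylase Pnp was at 112 against 77.9 CPM, the NAD kinase Nadk at 97.5 against 81.8 CPM and the mitochondrial NAD carrier Slc25a51 at 92.4 against 111 CPM. The higher gene was the ectonucleotidase Nt5e, at 77.7 against 30.04 CPM, and the lower one the mitochondrial kinase Nadk2, at 29.8 against 53.4 CPM. Neither of the nicotinamide oxidases Aox1 and Aox3 reached 10 CPM.

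Of 13 NAD-consuming enzymes measured 7 were higher and 1 lower, close to the 52.2% and 11.8% of all genes. With TMM scaling 7 were higher and 4 lower, where 26.9% and 24.5% of all genes were. The lower one was the mitochondrial deacetylase Sirt3, at 28.0 against 83.6 CPM. The deacetylases Sirt2 and Sirt7 were within 1.5-fold, at 78.4 against 69.6 and 43.5 against 55.7 CPM. Bst1 and Cd38, which make cyclic ADP-ribose from NAD, were at 36.3 against 1.39 CPM, the latter from 6 UMIs, and at 25.4 against 9.71 CPM. Among the 4 regulators and receptors measured, Hnf4a was at 116 against 264 CPM, Ppargc1a at 18.2 against 32.6 CPM and the kynurenine-binding receptor Ahr at 19.6 against 3.00 CPM. Nt5e, Nadk2, Bst1, Cd38, Ahr, Tdo2, Ido1 and Ido2 were chosen for mention after their values were seen.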

How the data were processed

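Each section came as UMI counts per gene and spot, deposited by the authors unnormalized; per the file headers they were made with Space Ranger 2.0.1, and per the submitters' processing notes on mm10. Neither the annotation release nor the strand setting is given in the sources used here. All spots of each matrix were used, since in the table of the section labelled Vehicle the tissue flag marks 1210 spots, of which 570 are among its 676.

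Counts were summed per section, block, class or region and expressed as CPM. Levels carry exact Poisson 95% intervals, folds exact conditional binomial ones and shares exact binomial ones; all cover counting error only. No test between sections was possible. Log2 ratios used a pseudocount of 1 CPM, which understates folds of low genes. Folds in the text are of CPM. Fold calculations were tested on simulated data. Regions came from Leiden clustering at resolution 0.6 (scanpy 1.11.5, leidenalg 0.10.2) without the 10 genes. TMM factors came from edgeR 4.0.16, used for scaling only. Tiles were 4 array rows by 8 columns with at least 8 spots.

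Every member is named. Of each pathway list the 3 genes of highest level are named, and the 3 genes most like each member at 50 CPM or more in a section; others are said to be chosen afterwards. One gene that this rule would name, and 1 promoter sequence, are not reported here. The members and lists were chosen with earlier results of these data known. The bands of proximal content, the quotients per single marker, the edge classes, the orderings by other lists, the mitochondrial limit and the tiles left out were chosen after seeing the data. Gene positions and promoters are from RefSeq GRCm38.p6 by symbol.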

Additional observations from a re-analysis of the deposited data

How the results depend on the processing

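Across 12 settings of scaling, total, pseudocount, minimum level, fold and spots, 9 of the 10 genes kept the sign of their log2 ratio in all 12 and Nampt in 10, from -0.41 to 0.28. The minimum level and the fold do not enter a log2 ratio, and a pseudocount cannot turn its sign. Those settings could therefore not change a sign. Acmsd ran from -4.70 to -3.66 and Nnmt from 1.92 to 3.33. TMM and median-of-ratios factors each called 8 members lower in place of 5. With TMM 21 pathway genes were lower in place of 13. The mean over single spots added Nadsyn1 (-0.61) to the members called lower. Leaving out Vehicle spots with 10% or more mitochondrially encoded counts, an alternative chosen after seeing the data, added Nmnat1 (-0.65) instead. The level of Acmsd in its highest SH045 region was 26.3 CPM at Leiden resolution 0.4 and 34.1 CPM with the members kept in, against 51.6 CPM. Nnmt in its highest region, which may be another region, was at 24.0 CPM in place of 44.5 CPM at resolution 0.4. The share of SH045 spots with Acmsd was 15.8% without thinning against 1.52%. In the section labelled Vehicle it was 57.2% without thinning and 22.6% at 1500 UMIs, against 36.5%. No paired analysis was possible because each group has 1 section and no test was made, and for the same reason no section could be left out. Depth limits Nnmt, Kynu, Nadsyn1 and Nmnat1 in the section labelled Vehicle, which rest on 9 to 80 UMIs.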
